A study of Saccharomyces cerevisiae with 4 samples.

Results

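The 51 genes described here encode the machinery that licenses replication origins, opens the helicase, copies DNA and joins sister chromatids behind the fork in budding yeast. They were chosen by gene symbol in the annotation of the array. All 51 symbols matched S. cerevisiae genes, each with 1 probe set, out of 5449 S. cerevisiae genes measured. By role they fall into 14 genes of origin licensing, 8 GINS, Cdc45 and initiation factor genes, 10 polymerase genes, 10 clamp and clamp loader genes, and 9 genes of fork protection, single-strand binding and fragment joining. Total RNA was measured on 4 Affymetrix Yeast Genome 2.0 arrays. The 2 wild type arrays carried RNA of strain K699 (MATa), and the 2 deletion arrays RNA of strain Y3501 (MATa, wpl1∆::KAN), in which WPL1 is replaced by a KAN marker. All cells grew exponentially in YP medium with 2% glucose and were harvested at an OD600 of 0.3. Wpl1, the yeast relative of Wapl, releases the cohesin ring from chromosomes. The comparison asks whether transcripts of the replication machinery, where cohesion is established, differ in cells without it. Neither separate cultures for the arrays of a group nor the number of deletion clones is stated in the labels, so the spread behind each p-value is that between arrays and may be technical.

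In G1 the origin recognition complex, with Cdc6 and Cdt1 (the product of TAH11), loads the ring-shaped MCM helicase onto origins. In S phase Sld2, Sld3 and Dpb11 bring Cdc45 and the GINS complex to the helicase, and polymerases alpha, epsilon and delta extend the new strands with the PCNA clamp. The Ctf18 clamp loader, Ctf4, Tof1, Csm3 and Mrc1 travel with or act at the fork and are needed for full cohesion, which Eco1 makes stable against Wpl1 by acetylating cohesin. Transcription of many of these genes peaks in late G1 under MBF, and that of several licensing genes, among them CDC6, at the end of mitosis.

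Median log2 values over all genes ran from 8.25 to 8.43 in the 4 arrays. Each of the 51 genes lay above background, the 95th percentile of the probe sets taken as S. pombe, in all 4 arrays. RAD61, the standard name of WPL1, read 6.43 and 6.55 in wild type and 3.96 and 4.44 in the deletion (replicates 1 and 2, the order kept for all values below), where it was not above background, and was at least 1.46-fold lower there (adjusted p = 1 in limma without a block, 0.141 with it). All 7 a-cell markers were above background in all 4 arrays, and of 4 alpha-cell markers MF(ALPHA)2 and SAG1 were above it in 4 arrays, MF(ALPHA)1 in 3 and STE3 in none. Arrays of the same replicate number correlated with r = 0.992 and 0.982, and arrays of the same genotype with r = 0.944 and 0.953, across genes. Deletion replicate 2 stood apart, since its 191 chromosome IX genes were at a median of 0.66 against wild type replicate 2 on the log2 scale, and at 0.04 in replicate 1. None of the 51 genes lies on chromosome IX (0 of 51). Of 5 markers of quiescent or starved cells, HSP12 and HSP26 were higher in both deletion arrays than in both wild type arrays. HSP26 was above background only in the deletion arrays. CTT1 was higher in the deletion in both replicates but overlapped, SSA3 differed in sign between replicates, and GRE1 was lower in both. The part of these markers in the values below was not tested.

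None of the 51 replication genes passed the test between genotypes (limma, Benjamini-Hochberg adjusted p under 0.05, 0 of 51), and 0% of all genes passed, also with the replicate number as a block. Without the block, 0 of the 51 had an unadjusted p under 0.05, against 0.184% of all genes. With it, 1 of the 51, ORC5, did, against 2.86% of all genes. The median log2 difference (deletion minus wild type) of the 51 genes was -0.06, and that of all genes -0.03. Without deletion replicate 2 the median of the 51 genes was 0.01. Single genes ran from -0.31 for RFC5 to 0.44 for ORC5. The error of the fit without a block holds the difference between replicate numbers. RAD61, the deleted gene, had a log2 difference of -2.29 and passed in neither fit. The lack of calls in either fit thus says little about changes, small or large. In the fit with the block the 95% interval of a gene extended 0.38 to either side of its difference (median of the 51), which leaves room for changes of that size.

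The sign of the genotype difference depended on the replicate number. In replicate 1, 32 of the 51 genes were higher in the deletion, with a median of 0.07, beside 59.8% of all genes, with a median of 0.04. In replicate 2, 41 of 51 were lower in the deletion, with a median of -0.16, beside 65.5% of all genes, with a median of -0.10. Higher in replicate 1 and lower in replicate 2 were 26 of the 51 genes, beside 38.5% of all genes. Lower in both replicates were 15 genes (26.9% of all genes) and higher in both 6 genes (21.3% of all genes). These counts changed with the scale of the arrays, and the cause was not tested. With each array centred on the median of all genes, 29 of 51 were higher in replicate 1, against 48.4% of all genes. In replicate 2, 34 of 51 were then lower, against 52.4%. Higher in replicate 1 and lower in replicate 2 were 19 (25.4% of all genes), lower in both 15 (27.0%) and higher in both 10 (23.0%). Both deletion arrays lay below both wild type arrays for 9 of the 51 genes, MCM5, SLD3, DPB11, PSF2, PSF3, POL31, POL32, RFC5 and RAD27, beside 8.61% of all genes. They lay above both for 2 genes, ORC5 and POL2, beside 5.32% of all genes. With centring, and with quantile normalization over genes, ORC5 still lay above, while POL2 overlapped and DPB11 and RAD27 no longer lay apart. Under both, MCM4 and RFA1 came to lie below and RFA2 above. With quantile normalization alone, PSF3 and POL31 no longer lay apart and ORC4 came to lie below. With centring 9 of the 51 lay below and 2 above, beside 8.81% and 6.96% of all genes. With quantile normalization 8 lay below and 2 above, beside 8.75% and 7.12%. As deposited and under both rescalings, 5 genes lay below and 1 above. The share of all genes that did so under each of these scales was not counted, so these 2 counts have no such measure beside them.

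**Figure D1:**
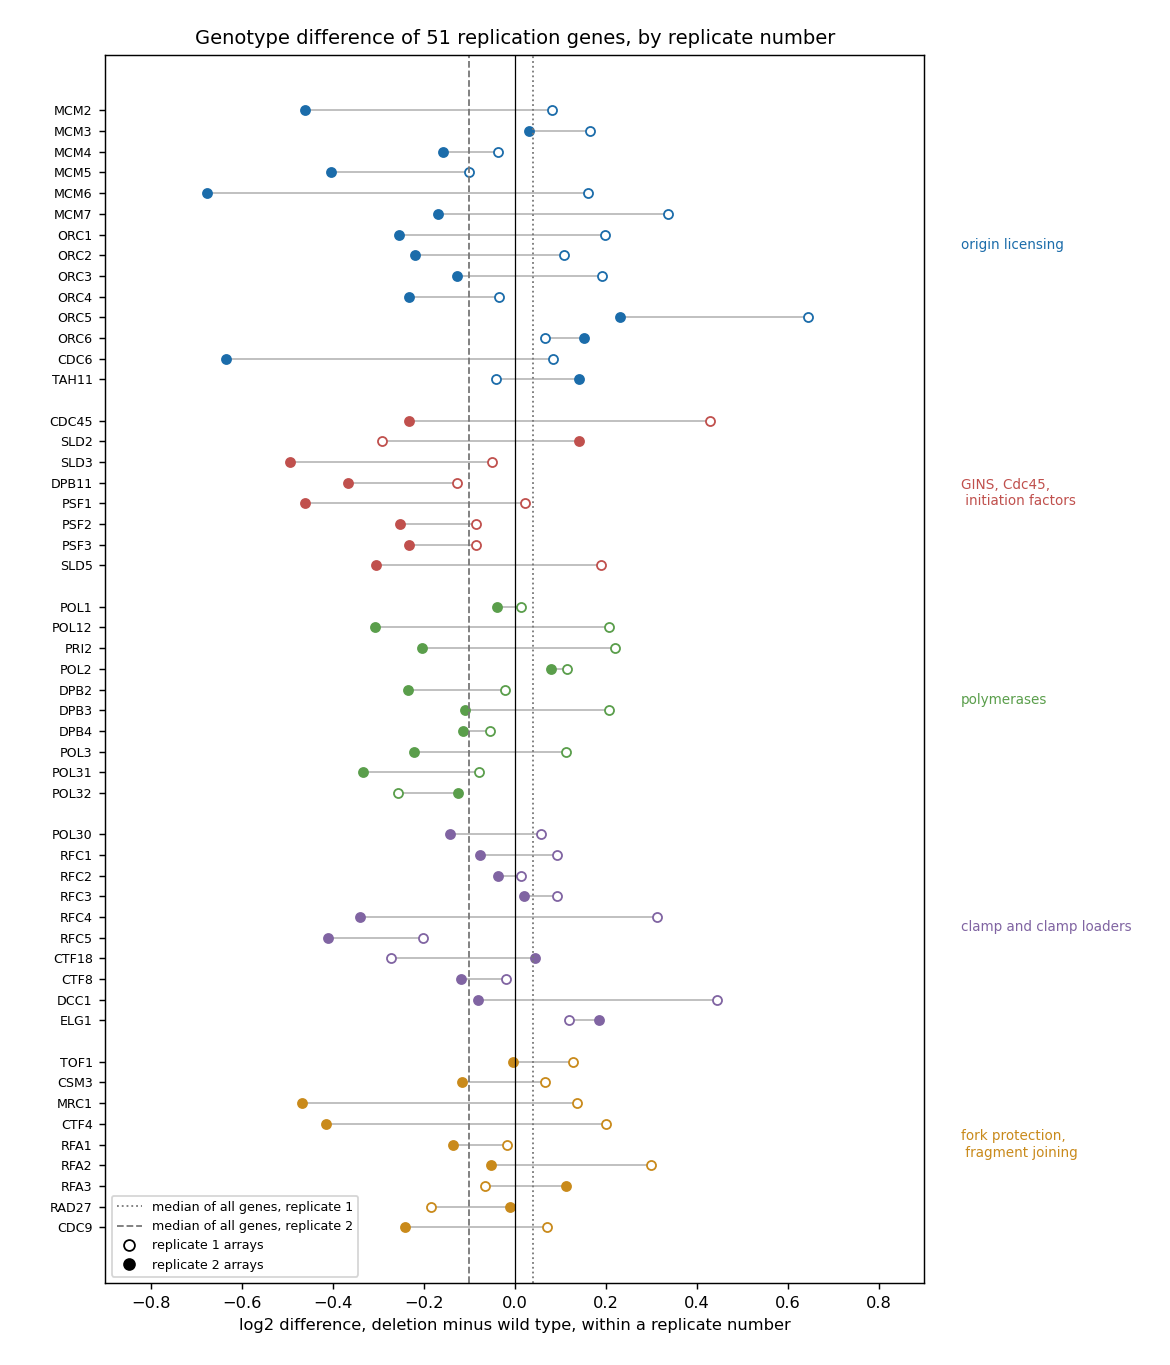
Log2 difference between deletion and wild type for each of the 51 genes (rows, coloured by role), with open points for the replicate 1 arrays and filled points for the replicate 2 arrays; vertical lines mark 0 and the medians of all genes, 0.04 and -0.10. In replicate 2, 41 of the 51 points lie left of 0, and ORC5 lies furthest right in both replicates.

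Among the licensing genes 6 of 14 had a log2 difference above 0, and their median was -0.04. ORC5, an ATP-binding subunit of the origin recognition complex, read 6.51 and 6.96 in wild type and 7.16 and 7.19 in the deletion on the log2 scale. The groups did not overlap, and wild type replicate 1 was the lowest of the 4. ORC5 averaged 6.73 ± 0.32 in wild type and 7.17 ± 0.02 in the deletion (SD, n = 2), a difference of 0.44 (SE 0.26, and 0.17 with the block, 95% interval 0.02 to 0.86), with an adjusted p of 0.996 in limma with the block. The other origin recognition subunits, ORC1, ORC2, ORC3, ORC4 and ORC6, had differences between -0.13 and 0.11.

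The MCM genes encode the 6 subunits of the helicase ring. MCM5 read 8.69 and 8.78 in wild type and 8.59 and 8.37 in the deletion, so its groups did not overlap, with a difference of -0.25 (SE 0.24, and 0.15 with the block). MCM6 read 8.33 and 8.56 in wild type and 8.49 and 7.88 in the deletion, where replicate 2 alone was low. Its difference was 0.16 in replicate 1 and -0.68 in replicate 2. MCM2 behaved alike in sign, with 0.08 and -0.46, and MCM7 with 0.34 and -0.17. MCM3 and MCM4 differed by 0.10 and -0.10 on average. No subunit passed the test. CDC6, the loader that acts with the origin recognition complex, read 7.48 and 8.73 in wild type and 7.56 and 8.09 in the deletion. Replicate 2 read higher than replicate 1 in both genotypes, and the genotypes differed by 0.08 in replicate 1 and by -0.64 in replicate 2. TAH11, for Cdt1, which escorts the helicase to origins, had -0.04 and 0.14.

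Of the GINS, Cdc45 and initiation factor genes, 7 of 8 had a difference below 0, with a median of -0.16, beside -0.03 for all genes. Both deletion arrays lay below both wild type arrays for 4 of the 8 (8.61% of all genes), and for 3 with centring and 2 with quantile normalization over genes. Without deletion replicate 2 the median was -0.13. SLD3, a target of cyclin-dependent kinase that recruits Cdc45, read 7.98 and 8.15 in wild type and 7.93 and 7.65 in the deletion. DPB11, the scaffold that joins phosphorylated Sld2 and Sld3, read 7.82 and 8.16 in wild type and 7.69 and 7.79 in the deletion. Both genes were lower in both deletion arrays than in both wild type arrays, and neither passed. The mean difference was -0.27 for SLD3 (SE 0.25, and 0.17 with the block) and -0.25 for DPB11 (SE 0.25, and 0.15 with the block). SLD3 had -0.05 in replicate 1 and -0.49 in replicate 2, and DPB11 -0.13 and -0.37. DPB11 overlapped with centring and with quantile normalization over genes. PSF2 and PSF3, of the GINS complex, had -0.17 and -0.16 and did not overlap between groups, though PSF3 did with quantile normalization over genes. PSF1, the GINS gene that lies next to RAD61 on chromosome IV, read 7.02 and 7.48 in wild type and 7.04 and 7.02 in the deletion. Only wild type replicate 2 stood above the other 3 arrays, and the difference was 0.02 in replicate 1 and -0.46 in replicate 2. The interval of PSF1 with the block was -0.67 to 0.23. CDC45, which completes the active helicase, read 8.00 and 8.60 in wild type and 8.43 and 8.37 in the deletion, with 0.43 in replicate 1 and -0.23 in replicate 2. SLD5, the fourth GINS gene, had 0.19 and -0.31, and SLD2 -0.29 and 0.14, the reverse order.

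For the polymerase genes the median log2 difference was -0.05, and 3 of 10 lay above 0. The 3 genes of polymerase delta, the enzyme of the lagging strand, all had values below 0. POL31, a small subunit, read 7.90 and 8.08 in wild type and 7.82 and 7.75 in the deletion. POL32, the subunit that binds PCNA, read 8.28 and 8.20 in wild type and 8.03 and 8.07 in the deletion. The groups did not overlap for either gene, though those of POL31 did with quantile normalization over genes. The differences were -0.21 (SE 0.23) for POL31 and -0.19 (SE 0.23) for POL32, or SEs of 0.15 and 0.14 with the block. POL3, the catalytic subunit, had 0.11 in replicate 1 and -0.22 in replicate 2. In polymerase epsilon, the enzyme of the leading strand, POL2 had 0.11 and 0.08, DPB2 -0.02 and -0.24, DPB3 0.21 and -0.11, and DPB4 -0.05 and -0.11. In polymerase alpha-primase, which starts each fragment, the average differences were -0.01 for POL1, -0.05 for POL12 and 0.01 for PRI2, and all 3 were higher in replicate 1 and lower in replicate 2.

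For the clamp and clamp loader genes the median was -0.01, and 4 of 10 lay above 0. POL30, which encodes PCNA, read 8.56 and 8.57 in wild type and 8.62 and 8.43 in the deletion, a difference of -0.04 (SE 0.14 with the block). RFC5, a small subunit that the RFC, Ctf18 and Elg1 clamp loaders share, read 8.79 and 8.66 in wild type and 8.59 and 8.25 in the deletion. Both deletion arrays were below both wild type arrays, and the difference was -0.31 (SE 0.25, and 0.15 with the block, 95% interval -0.68 to 0.07). The other RFC genes had averages between -0.01 and 0.06, and RFC4 was at 0.31 in replicate 1 and -0.34 in replicate 2. Of the genes particular to the Ctf18 loader, which is needed for cohesion, CTF18 had -0.27 and 0.04, CTF8 -0.02 and -0.12 and DCC1 0.45 and -0.08 in replicates 1 and 2. ELG1, of the loader that takes PCNA off DNA, read 7.16 and 7.57 in wild type and 7.28 and 7.76 in the deletion. It was higher in the deletion in both replicates, by 0.12 and 0.18, but the groups overlapped.

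Of the genes of fork protection, single-strand binding and fragment joining, 3 of 9 had a difference above 0, and the median was -0.08. MRC1, the checkpoint mediator at the fork, read 8.11 and 9.01 in wild type and 8.25 and 8.54 in the deletion, so its difference was 0.14 in replicate 1 and -0.47 in replicate 2. TOF1 and CSM3, its partners, had averages of 0.06 and -0.02. CTF4, which links the helicase to polymerase alpha, was at 0.20 and -0.42. RFA2, a subunit of the single-strand binding protein RPA, read 8.12 and 8.10 in wild type and 8.42 and 8.05 in the deletion, where replicate 1 alone was high. RFA1 and RFA3 had averages of -0.08 and 0.02. RAD27, the flap nuclease, had -0.18 and -0.01, and CDC9, the ligase that seals fragments, 0.07 and -0.24.

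**Figure D2:**
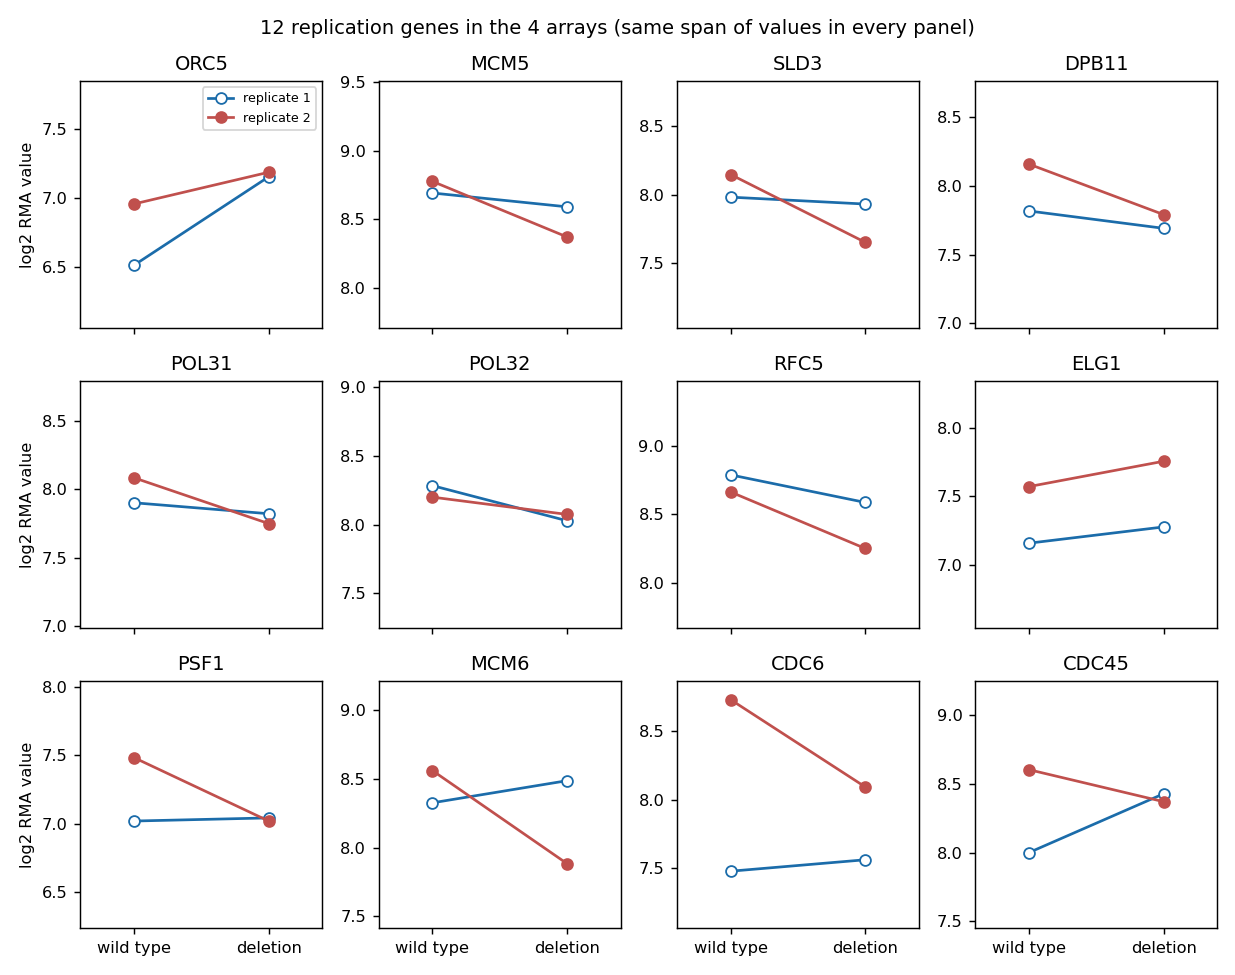
Log2 values of 12 of the genes in wild type and deletion arrays, with a line for each replicate number and the same span of values in each panel. The deletion point lies above the wild type point on both lines for ORC5 and ELG1. It lies below on both for MCM5, SLD3, DPB11, POL31, POL32 and RFC5, and on opposite sides for PSF1, MCM6, CDC6 and CDC45. None of these differences passed the test.

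The same genes were next compared between replicate numbers, which both genotypes share. The array descriptions give arrays of the same number a common tag, and what else they share is not stated. With genotype in the fit, 5 of the 51 genes passed (limma, adjusted p under 0.05), beside 19.4% of all genes. With all probe sets of the array in the fit, 0 of the 51 and 0 of all genes passed, and CDC6, TAH11, RFC3 and CTF18 had adjusted p from 0.133 to 0.147 in limma. CDC6 and CTF18 were higher in replicate 2 (6.15% of all genes were called in that direction) and MCM3, TAH11 and RFC3 lower (13.2% of all genes). The share of the 51 genes called was thus below that of all genes. All genes had a median of -0.13 (replicate 2 minus replicate 1, log2) and the 51 genes -0.02. Centred on the median of all genes, 7 of the 51 were called higher and 3 lower, beside 775 and 826 of the 5449 genes (29.4% called in all). Of the calls over all genes 48.4% were then higher ones, against 31.7% as deposited. The 5 named genes were called in both.

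CDC6 had the largest difference of the 51, at 0.89 (SE 0.21, adjusted p = 0.0454, limma), with 1.25 in wild type and 0.53 in the deletion. CTF18 read 7.73 and 7.46 in the replicate 1 arrays of wild type and deletion and 8.26 and 8.30 in the replicate 2 arrays, a difference of 0.69 (SE 0.15). TAH11 read 9.03 and 8.99 in the replicate 1 arrays and 8.15 and 8.29 in the replicate 2 arrays, a difference of -0.80 (SE 0.14). RFC3 read 8.81 and 8.91 against 8.10 and 8.13, a difference of -0.74 (SE 0.14). MCM3 read 7.88 and 8.05 against 7.32 and 7.35, a difference of -0.63 (SE 0.14). In these 5 genes both arrays of one number lay apart from both of the other. Relative to the median of all genes the differences were 1.02 for CDC6, 0.82 for CTF18, -0.67 for TAH11, -0.61 for RFC3 and -0.50 for MCM3. ORC1, another ATP-binding subunit of the origin recognition complex, read 8.06 and 8.26 against 8.94 and 8.69, a difference of 0.66 (SE 0.17), and missed the threshold (adjusted p = 0.0538, limma). ORC1 passed under 6 alternatives that kept all 4 arrays, with adjusted p from 0.0112 with centring to 0.0476 with the filter on dim genes. With an array left out and no genotype term, all 5 calls ended without wild type replicate 1 and without deletion replicate 1.

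**Figure D3:**
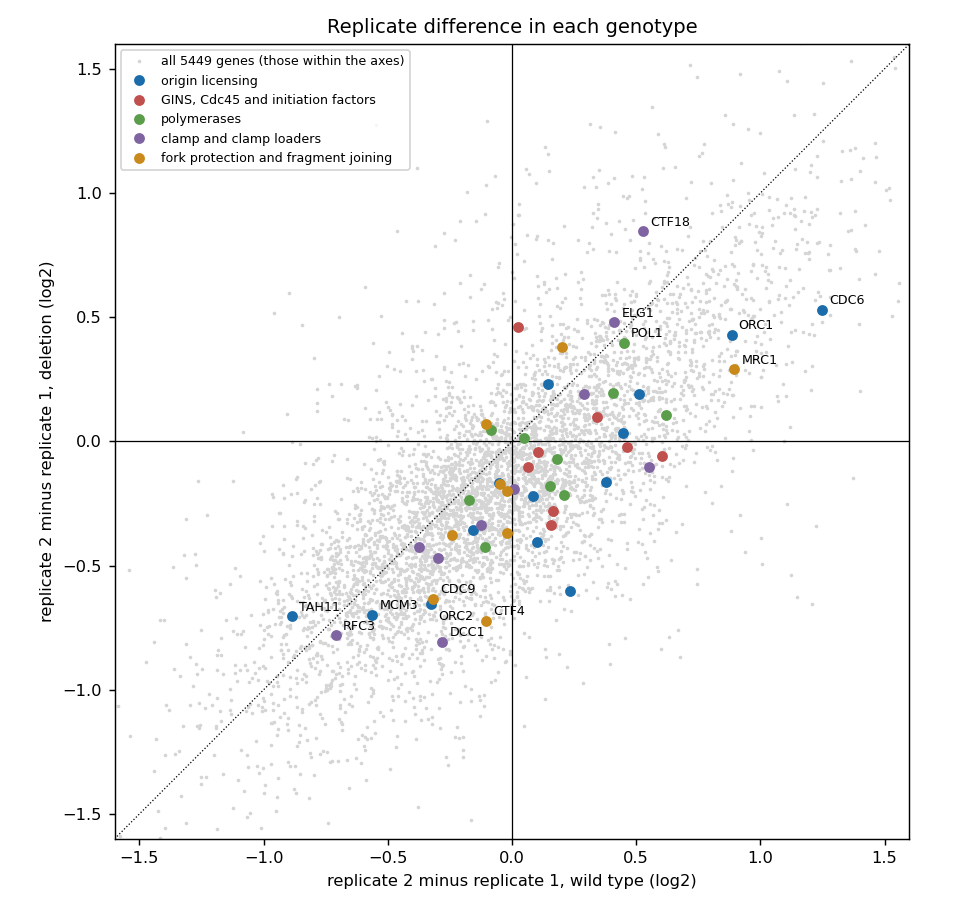
Difference between replicate 2 and replicate 1 in wild type (horizontal) and in the deletion (vertical), log2, with the 51 genes coloured by role over all genes in grey and a dotted line of equal difference. CDC6, ORC1 and CTF18 lie up and right, MRC1 lies right with 0.29 on the vertical axis, and TAH11, MCM3 and RFC3 lie down and left.

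In several complexes the subunits lay apart between replicate numbers, and the differences between subunits were not tested as such. The SD of the replicate difference was 0.49 over all genes and 0.36 over the 51. It was 0.42 for the origin recognition complex, 0.25 for the helicase and 0.35 for RFC. For the subunits particular to the Ctf18 loader it was 0.62, and for TOF1, CSM3 and MRC1 0.47. Of the subunits below only MCM3, RFC3 and CTF18 passed. In the origin recognition complex ORC1 had 0.66 and ORC2 -0.49, the highest and lowest of its subunits. Their 95% intervals, 0.22 to 1.09 and -0.89 to -0.09, not adjusted for this choice, did not overlap. Of the helicase genes MCM3 had -0.63, while the other 5 lay between -0.18 and 0.11. Among the clamp loader genes RFC1, RFC2, RFC3 and RFC5 lay between -0.74 and -0.23 and RFC4 at 0.22. Within the Ctf18 loader, CTF18 had 0.69 (SE 0.15) and DCC1 -0.54 (SE 0.18). At the fork MRC1 had 0.59, and TOF1 and CSM3 had -0.31 and -0.11. GINS and polymerase delta genes stayed within -0.09 to 0.22. POL1, POL12 and PRI2, of polymerase alpha-primase, had 0.42, 0.36 and -0.0041. Both replicate 2 arrays lay above both replicate 1 arrays for 13 of the 51 genes (23.4% of all genes) and below for 17 (46% of all genes). Centred on the median of all genes these counts were 19 and 13, against 32.8% and 37.0% of all genes, so their order turned.

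**Figure D4:**
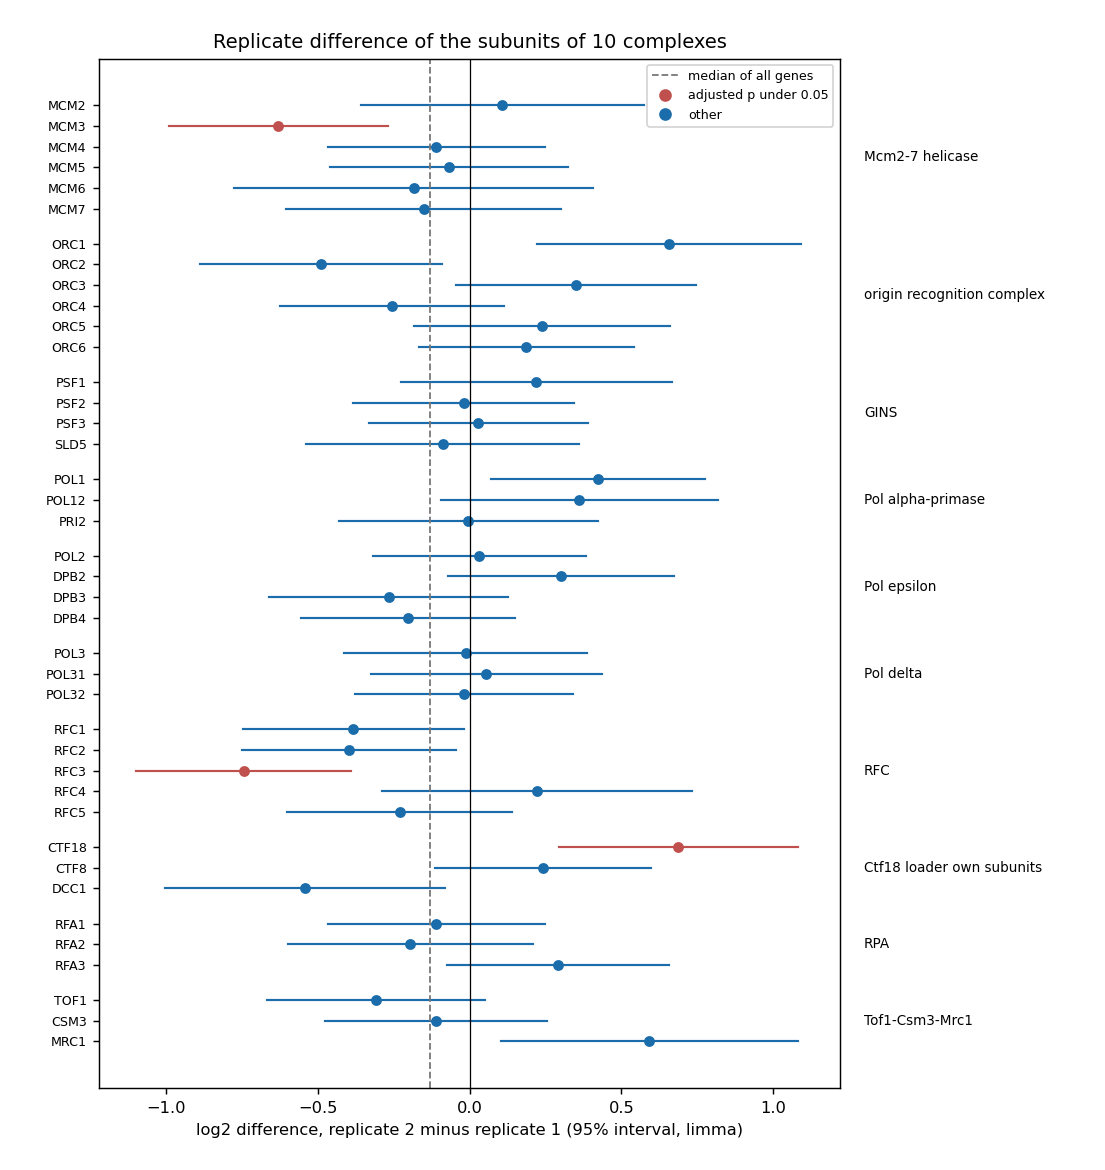
Log2 difference between replicate 2 and replicate 1 for the subunits of 10 complexes, with 95% intervals from limma with genotype in the fit and red for an adjusted p under 0.05. RFC3 and MCM3 lie left and CTF18 right of the line at 0, and the GINS and Pol delta intervals all cross it.

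Beside the replication genes, 3 lists of cell cycle transcripts were read between replicate numbers, where 19.4% of all genes were called. By direction, 6.15% of all genes were called higher in replicate 2 and 13.2% lower. Of 7 measured G1 transcripts, 4 were called higher in replicate 2 (CLN1, CLN2, CLB6 and SWI4) and 0 lower, with a median of 0.73. The others, CLB5, RNR1 and CDC21, had 0.61, 0.50 and -0.39 and were not called. Of 5 mitotic transcripts, 3 were called higher (CLB1, CLB2 and CDC5) and 0 lower, with a median of 0.63. The others, CDC20 and SWI5, had -0.17 and -0.04 and were not called. Of 7 histone genes, expressed in S phase, 0 were called, with a median of 0.25. The mean log2 level of the G1 transcripts was 8.16 and 8.25 in the replicate 1 arrays of wild type and deletion and 8.92 and 8.74 in the replicate 2 arrays. Between genotypes the medians of these 3 lists were -0.04, 0.02 and 0.05. The part of these transcripts in the shifts of the replication genes was not tested. In such bulk RNA a smaller share of cells at a stage and less transcript per cell cannot be told apart.

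Of a further 34 genes of replication and cohesion, 0 were called between genotypes, and their median was -0.04. Both deletion arrays lay below both wild type arrays for 6 of them (8.61% of all genes) and above for 1 (5.32% of all genes), CDC7, the kinase that fires origins. RLF2, a subunit of the chromatin assembly factor, read 8.80 and 8.72 in wild type and 8.55 and 8.33 in the deletion, a difference of -0.32 (SE 0.24, and 0.14 with the block). ECO1, the cohesin acetyltransferase, read 6.64 and 6.82 in wild type and 6.37 and 6.51 in the deletion, a difference of -0.29 (SE 0.24, and 0.14 with the block). RTT101, a cullin that acts at forks, had -0.14 and -0.43 in replicates 1 and 2. IRR1, a cohesin subunit on chromosome IX, had 0.03 and 0.71. MCM10 and PRI1, also on chromosome IX, had -0.48 and 1.02, and 0.01 and 0.69. Between replicate numbers 4 of the 34 were called higher in replicate 2 (MCD1, SMC3, TOP1 and TOP2, beside 6.15% of all genes) and 2 lower (RNH201 and SCC4, the latter a subunit of the cohesin loader at -0.75, beside 13.2% of all genes).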

How the data were processed

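RNA of 2 wild type and 2 deletion samples was measured on Affymetrix arrays, per the labels' protocols as labelled double-stranded cDNA, which does not keep the strand. The authors deposited log2 expression values per probe set. The submitters' processing notes name RMA and the affy package, with no version. RMA makes the distributions of probe intensities equal between arrays before they are summarised per probe set, so differences are relative to other transcripts. The values of the S. cerevisiae genes are not thereby equal, and their medians ran from 8.25 to 8.43.

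Of 10928 probe sets, 5498 matched S. cerevisiae genes of assembly R64 by gene ID and were averaged to 5449 genes. The 1746 other probe sets with 1 gene symbol matched no S. cerevisiae gene ID, were taken as S. pombe and served as background. The symbols of the 51 genes were matched to the platform annotation. Groups came from sample titles. Genes were tested across all 5449 with limma 3.58.1 in R 4.3.3 (two-sided moderated test, threshold 0.05 on the Benjamini-Hochberg adjusted p), for genotype without covariates and for replicate number with genotype as covariate, and the steps were tested on simulated data. Shared tags in the labels pair arrays of the same number, whose deviations from group means correlated with r = 0.747, and SEs with the replicate block are from the paired fit. Genes given with all 4 values were RAD61, PSF1, the 2 smallest block p-values per role and the 5 largest replicate differences. To these were added the 3 most opposed genotype differences and the 5 of the same sign whose smaller pair difference was largest. RLF2, ECO1, RTT101 and IRR1 had the smallest block p-values of the further list, and the first 2 are given with all 4 values. POL30 was added after its values were seen, and others are given by range or by pair difference. The 9 and 2 genes whose groups did not overlap, and the genes compared within complexes, were named after their values were seen, as were MCM3 for its replicate call and the other genes of the further list. Members and lists were chosen with earlier results of these data known. Levels of different genes were not compared, and promoter and protein sequences were not analysed here. Alternatives were the block, a filter on dim genes, the brightest probe set, all probe sets, quantile normalization or centring over genes, a trended and robust prior, no chromosome IX genes, no genotype term, an unadjusted threshold and leaving out each array. The number of arrays limits the precision.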

Additional observations from a re-analysis of the deposited data

How the results depend on the processing

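The count of 0 replication genes called between genotypes held under the replicate block and under every other alternative that kept all 4 arrays, and the block changed no call. RAD61, the deleted gene, passed neither with nor without the block, so this steady count says little about the replication genes. Over all genes the count was 0 under each alternative that kept the 4 arrays, with 10 at an unadjusted p under 0.05, and ran from 0 to 3 with an array left out. Between replicate numbers 5 replication genes were called, beside 19.4% of all genes. With quantile normalization over genes the count was 10 (26.9% of all genes) and with centring 10 (29.4%). It was 9 without the genotype term (28.4%) and 0 with all probe sets in the fit (0%). Over all genes 1056 calls became 1601 with centring and 0 with all probe sets, and ran from 290 to 1729 with an array left out. The causes were not tested. With an array left out, genotype and replicate number are mixed, and the lone array of a group is assumed to vary like the other group. The median genotype difference then ran from -0.18 to 0.046 for clamp and clamp loader genes and from -0.13 to 0.076 for fork genes, and from -0.21 to -0.07 for the GINS, Cdc45 and initiation factor genes. Named differences that turned sign then ran from -0.45 to 0.011 for PSF1, -0.088 to 0.39 for ELG1, -0.61 to 0.28 for MRC1, -0.063 to 0.31 for RFA2, -0.56 to 0.044 for MCM6, -0.90 to 0.35 for CDC6 and -0.20 to 0.40 for CDC45. ORC1 passed between replicate numbers under 6 of the alternatives that kept all 4 arrays. No named difference turned sign under the alternatives that kept all 4 arrays.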

Other observations

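Among the 51 genes, 2 pairs are direct neighbours in the order of genes of assembly R64, and PSF1 lies next to RAD61. POL2 and ORC5 lie next to each other on chromosome XIV, and these were the 2 genes for which both deletion arrays lay above both wild type arrays, with log2 differences of 0.10 and 0.44. With arrays centred on the median of all genes, or quantile normalized over genes, POL2 overlapped between groups and ORC5 did not. RFC5 and POL30 lie next to each other on chromosome II, with -0.31 and -0.04. Signal that runs from a gene into its neighbour cannot be told apart here from the neighbour's own transcript. The array label does not keep the strand, which bears only on neighbours on opposite strands.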
